A study of Mus musculus with 103 samples.

Results

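RNA of Irg1, the gene of the enzyme that makes itaconate, and of 8 enzymes and subunits of the tricarboxylic acid (TCA) cycle was followed in mouse macrophages given a Toll-like receptor agonist. The 8 were Cs, Idh2, Idh3a, Ogdh, Sdha, Sdhb, Fh1 and Mdh2. The 9 genes were taken by symbol from a table of 24014 gene symbols, with the transcript of highest mean level standing for each, and all 9 were among the 10605 genes that reached an RPKM of 1 in at least 2 libraries. RPKM is a read count divided by the length of the transcript and by the size of the library.

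The cells were thioglycollate-elicited peritoneal macrophages from male C57BL/6 mice 6 to 8 weeks old, washed out of the peritoneum 3 to 4 days after the injection and kept overnight in 0.5% serum. Of 103 samples that the labels describe, 8 were analysed. There were 4 conditions with KLA (Kdo2-lipid A, a lipopolysaccharide core lipid that activates TLR4) at 100 ng/ml for 1, 6, 12 or 24 h, against untreated cells named as the control for 1 to 12 h and other untreated cells named as the control for 24 h. The other 2 samples were ChIP-seq peak lists of SREBP1 and LXR in macrophages given 1 µM GW3965, an agonist of LXR, without KLA. The LXR sample was used under its title, although its treatment field reads as a control, and the header of its file points to 5 h of GW3965 with an input library from KLA cells at 24 h. No genotype other than the strain is labelled, thioglycollate draws in macrophages that differ from those resident in the peritoneum, and the labels used here do not say whether mice were pooled. Each condition had 1 library, so there is no replicate error, no p-value is given, and every interval below is a 95% counting interval of that library alone.

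Irg1, now named Acod1, encodes cis-aconitate decarboxylase, which draws cis-aconitate out of the TCA cycle and turns it into itaconate. Itaconate is a competitive inhibitor of succinate dehydrogenase, and the enzyme is best known from macrophages activated through Toll-like receptors. The cycle itself oxidises acetyl units step by step in the mitochondrion, and activated macrophages are known to run it with interruptions around isocitrate and succinate.

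The libraries held 2205187 to 2674826 reads, and 9266 to 10172 genes reached an RPKM of 1. The 6 macrophage markers of the table (Cd68, Emr1, Csf1r, Itgam, Lyz2 and Mertk) were present in every library, and their summed level lay between 6096 and 10282 RPKM with KLA and at 9169 and 11193 RPKM without it. Summed markers of neutrophils ran from 52.2 to 128 RPKM, those of fibroblasts and mesothelium from 97.6 to 182 RPKM, those of lymphocytes from 4.45 to 6.82 RPKM, those of dendritic cells from 1.14 to 9.38 RPKM and those of mast cells and eosinophils from 0.713 to 8.02 RPKM. Mpo, Mcpt4, Epx and Prg2, which define neutrophil precursors, mast cells and eosinophils, were listed at 0 in all 6 libraries. In bulk RNA, fewer cells of a type and less RNA per cell cannot be told apart.

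Promoters are shown for the 6 genes in which the centre of an SREBP1 or LXR peak lay within the 250 bases before the start site. Idh2, Sdha and Fh1 had such an SREBP1 peak, and Irg1, Sdhb and Mdh2 such an LXR peak. The sequences are RefSeq's, on build GRCm38.p6, matched by gene identifier (8 of the 9 genes matched, Irg1 under the name Acod1). The peaks were deposited on build mm9, so no peak was placed on a base of the sequence. Each is the 250 bases before the start site, 5′ to 3′ on the strand of the gene, and capitals mark a match to a searched motif. The regions are chr14:103046762-103047011 (plus strand) for Irg1, chr7:80115351-80115600 (minus) for Idh2, chr13:74350241-74350490 (minus) for Sdha, chr1:175625636-175625885 (minus) for Fh1, chr4:140961021-140961270 (plus) for Sdhb and chr5:135778399-135778648 (plus) for Mdh2.
Irg1: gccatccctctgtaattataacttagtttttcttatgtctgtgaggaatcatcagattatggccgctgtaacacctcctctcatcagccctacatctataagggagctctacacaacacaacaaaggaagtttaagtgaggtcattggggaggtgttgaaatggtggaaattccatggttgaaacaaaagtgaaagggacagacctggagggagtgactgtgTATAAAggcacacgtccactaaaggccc
Idh2: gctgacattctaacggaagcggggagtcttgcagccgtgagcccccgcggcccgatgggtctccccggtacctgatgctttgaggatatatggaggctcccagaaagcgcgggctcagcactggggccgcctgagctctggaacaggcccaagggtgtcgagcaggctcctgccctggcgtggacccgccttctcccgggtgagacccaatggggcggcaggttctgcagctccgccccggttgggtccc
Sdha: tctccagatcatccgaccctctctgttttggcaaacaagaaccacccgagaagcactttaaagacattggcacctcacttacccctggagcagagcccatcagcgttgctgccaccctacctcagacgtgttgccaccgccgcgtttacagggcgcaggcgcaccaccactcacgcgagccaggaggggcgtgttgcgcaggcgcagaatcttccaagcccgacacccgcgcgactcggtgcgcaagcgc
Fh1: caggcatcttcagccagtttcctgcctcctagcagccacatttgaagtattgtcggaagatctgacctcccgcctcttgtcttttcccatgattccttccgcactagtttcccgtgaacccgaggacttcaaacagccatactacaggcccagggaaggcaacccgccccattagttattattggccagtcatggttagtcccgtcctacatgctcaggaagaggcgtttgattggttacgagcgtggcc
Sdhb: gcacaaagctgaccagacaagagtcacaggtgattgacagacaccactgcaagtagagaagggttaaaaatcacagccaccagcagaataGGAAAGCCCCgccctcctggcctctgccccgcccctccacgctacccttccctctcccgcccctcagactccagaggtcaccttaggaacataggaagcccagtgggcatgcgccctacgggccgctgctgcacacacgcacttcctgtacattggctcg
Mdh2: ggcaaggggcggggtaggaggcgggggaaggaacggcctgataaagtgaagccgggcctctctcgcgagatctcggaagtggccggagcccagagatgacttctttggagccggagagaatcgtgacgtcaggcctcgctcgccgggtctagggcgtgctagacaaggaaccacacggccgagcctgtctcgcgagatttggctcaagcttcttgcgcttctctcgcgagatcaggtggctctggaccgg

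The Irg1 promoter stood apart from the other 5 in base composition. It was 44.4% G and C with 2 CpG dinucleotides, against 52.8% (Fh1) to 67.2% (Idh2) and 9 (Sdhb) to 23 (Mdh2) CpG in the others, and the median of all 32851 promoters was 52.4% G and C. It held a TATA match (TATAAA) starting 28 bases before the start site, a motif held by 12.4% of all promoters on either strand. The Sdhb promoter held a match to the NF-kB motif starting 160 bases before the start site, and 3.90% of all promoters hold one. That motif was searched as GGGRNWYYCC (R is A or G, W is A or T, Y is C or T, N is any base). Variants with other letters were not counted, and the string tggaaattcc in the Irg1 promoter differs from the motif in its first letter. No other match was found in the 6 promoters among the motifs searched on both strands, which were the interferon element ISRE (in 2.98% of all promoters), the sterol element SRE (TCACNCCAC, 1.05%), the E-box (CACGTG, 6.02%), the LXR element DR4 (0.0152%), the ERR element (TCAAGGTCA, 0.387%) and the ETS element (CCGGAAG, 6.91%). The matches did not overlap one another. A match is a string of letters and no evidence of a bound site.

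Irg1 (NM_008392, chr14:103446229-103455790, mm9, plus strand) was low without KLA and among the most abundant RNAs with it. Its level was 722 RPKM after 1 h of KLA, 2323 RPKM after 6 h and 1828 RPKM after 12 h, against 5.61 RPKM in the 1 to 12 h control. After 24 h of KLA it was 1620 RPKM, against 6.87 RPKM in the 24 h control. All 4 KLA libraries lay far above both untreated ones, which rested on 32 and 46 reads against 4485 to 14260 reads with KLA.

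Irg1 ranked 76th of all symbols after 1 h of KLA, 25th after 6 h, 32nd after 12 h and 33rd after 24 h, against rank 6429 in the 1 to 12 h control and 5962 in the 24 h control. It held 0.214%, 0.710%, 0.549% and 0.485% of the reads in genes at 1, 6, 12 and 24 h of KLA, against 0.00170% and 0.00211% in the 1 to 12 h and 24 h controls. At each time of KLA it was one of the genes at least 2-fold higher on the log2(RPKM + 1) scale, as were 3.65%, 9.35%, 8.88% and 9.98% of genes at 1, 6, 12 and 24 h. Its log2 ratios at these times were 6.77, 8.46, 8.11 and 7.69. At 1 to 12 h, 99.92% of genes had a lower ratio, and at 24 h 99.95%.

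The few untreated reads set the precision of these ratios. On plain RPKM the ratio at 6 h was 414 (interval 293 to 606) against the 1 to 12 h control and 338 (253 to 462) against the 24 h control. The course among the KLA libraries was far better determined. Irg1 was 3.22-fold higher at 6 h than at 1 h (3.11 to 3.33), 1.27-fold lower at 12 h than at 6 h (1.24 to 1.30) and 1.13-fold lower at 24 h than at 12 h (1.10 to 1.16). The 2 untreated libraries did not differ in Irg1 beyond counting error, the 24 h control being at 1.23 times the 1 to 12 h control (0.764 to 1.99).

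**Figure D1:**
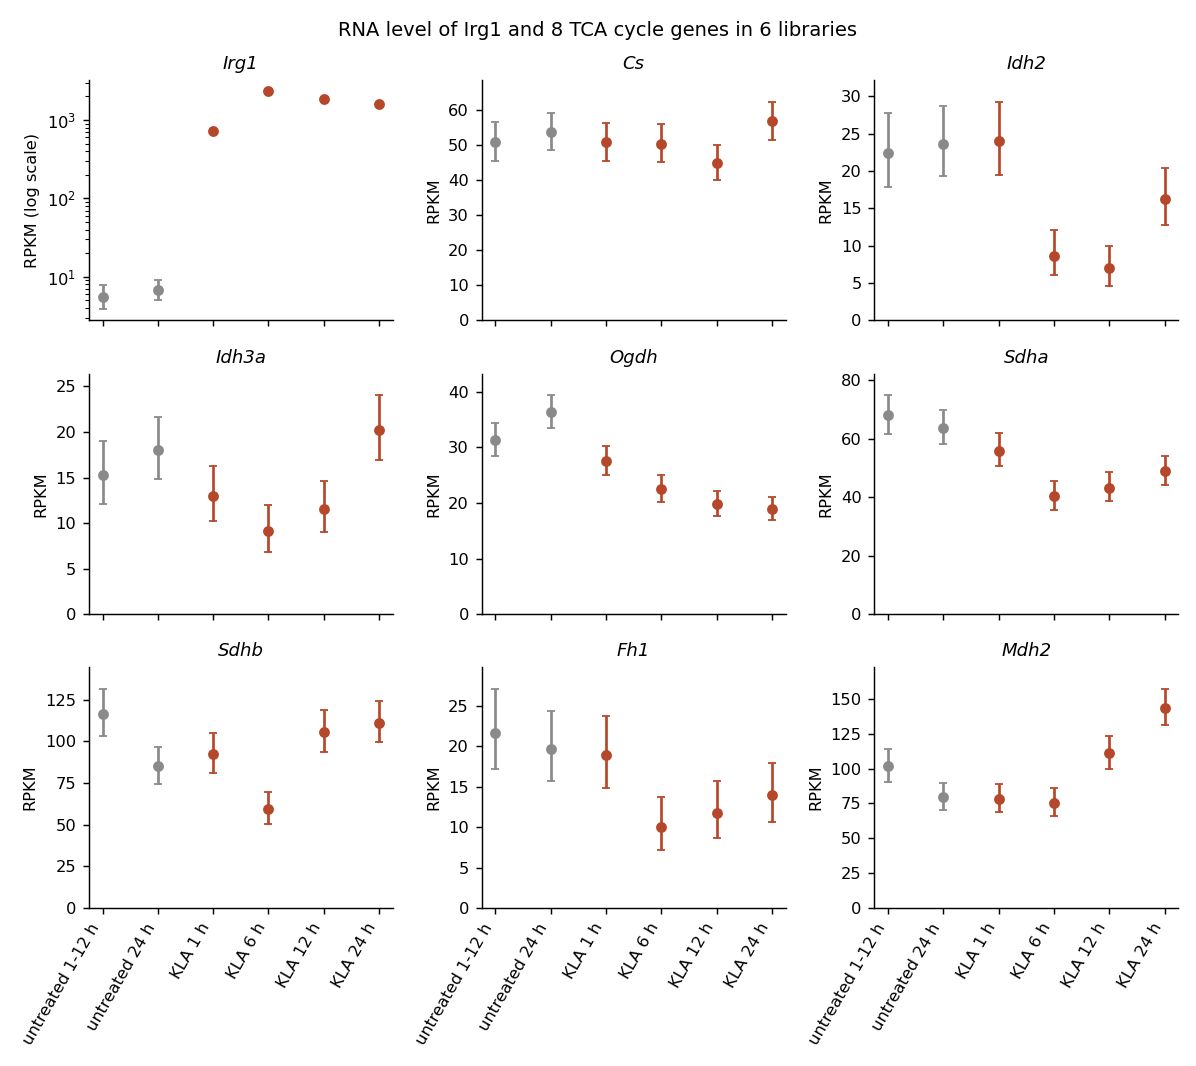
RNA level (RPKM) of Irg1 (log scale) and of the 8 TCA cycle genes (linear scales from 0) in the 2 untreated libraries (grey) and the 4 KLA libraries (red), with 95% exact Poisson counting intervals as bars. Irg1 stood at 722 to 2323 RPKM with KLA and at 5.61 and 6.87 RPKM without it. Every TCA cycle gene but Ogdh had its lowest point at 6 or 12 h of KLA. Except for Sdhb, these low points were within counting error of another library.

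The 8 TCA cycle RNAs moved little beside Irg1. Their summed level was 361 RPKM after 1 h of KLA, 276 RPKM after 6 h and 355 RPKM after 12 h, against 428 RPKM in the 1 to 12 h control, and 430 RPKM after 24 h of KLA, against 380 RPKM in the 24 h control. Irg1 alone was 2.00, 8.42, 5.14 and 3.77 times that sum at 1, 6, 12 and 24 h of KLA, against 0.0131 and 0.0181 times in the 1 to 12 h and 24 h controls. Without KLA, Sdhb and Mdh2 were the highest of the 9 and Irg1 was the lowest. The intervals of Sdhb and Mdh2 overlapped in both untreated libraries, as did those of Idh2 and Fh1 and of Fh1 and Idh3a. With KLA, Irg1 was the highest at every time, and the lowest place passed to Idh3a (1 h), Idh2 (6 and 12 h) and Fh1 (24 h), each with an interval that overlapped that of its nearest neighbour among the TCA genes.

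Few members were past 2-fold, and no count exceeded the background of the whole table by as much as 1 gene. None of the 8 was at least 2-fold lower at 1 h (4.09% of all genes were), 2 were at 6 h (22.4%), 1 was at 12 h (16.3%) and none was at 24 h (10.6%), and none was at least 2-fold higher at any time. Between the untreated libraries (24 h control over 1 to 12 h control), none of the 8 was 2-fold higher (1.72% of all genes) or lower (2.42%). Idh2 and Fh1 were the 2 at 6 h and Idh2 the 1 at 12 h. The median log2 ratio of the 8 was -0.20, -0.71, -0.50 and -0.15 at 1, 6, 12 and 24 h, against -0.16, -0.46, -0.32 and -0.09 over all genes tested. With the libraries rescaled so that the median of all genes was 0, the median of the 8 was -0.25 at 6 h and -0.18 at 12 h, and none was 2-fold lower at 6 h. At 6 h the counting interval of the plain ratio lay below 1 for 7 of the 8, Cs being the exception. Against the 24 h control it did so for 6, Mdh2 being the other exception. The share of all genes with such an interval was not computed, so these counts are not set apart from the shift of all genes. Ogdh, 1 of the 7, had a log2 ratio of -0.46 at 6 h, the same as the median of all genes.

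Cs encodes citrate synthase, which joins acetyl-CoA to oxaloacetate at the entry of the cycle (NM_026444, chr10:127774888-127799535). Its level was 50.9, 50.4 and 45.0 RPKM after 1, 6 and 12 h of KLA, against 50.8 RPKM in the 1 to 12 h control, and 56.9 RPKM after 24 h of KLA, against 53.7 RPKM in the 24 h control. The plain ratio at 6 h was 0.991 (0.848 to 1.16), and its interval included 1 at all 4 times. Against the other untreated library, the interval at 12 h lay below 1 (ratio 0.837, 0.719 to 0.973).

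Among the 8, the gene with the largest difference was an isocitrate dehydrogenase. Idh2 (NM_173011, chr7:87239734-87260236, minus strand) encodes the mitochondrial isocitrate dehydrogenase that makes NADPH. It stood at 24.0 RPKM after 1 h of KLA, 8.68 RPKM after 6 h and 6.97 RPKM after 12 h, against 22.4 RPKM in the 1 to 12 h control. After 24 h of KLA it was 16.3 RPKM, against 23.6 RPKM in the 24 h control. The libraries of 6 and 12 h were the low ones, and that of 1 h lay close to the untreated ones.

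Idh2 was 2.58-fold lower at 6 h (1.72 to 3.95), 3.21-fold lower at 12 h (2.09 to 5.09) and 1.45-fold lower at 24 h (1.07 to 1.98), and 2.33-fold higher at 24 h than at 12 h of KLA (1.50 to 3.72). Its log2 ratio of -1.27 at 6 h stood above those of 13.7% of all genes, and that of -1.55 at 12 h above those of 5.71%. Taken against Cs in the same library, Idh2 was at 0.472, 0.172, 0.155 and 0.286 times Cs at 1, 6, 12 and 24 h of KLA, against 0.441 and 0.440 times in the 1 to 12 h and 24 h controls. At 12 h it rested on 29 reads, against 84 in the control.

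Idh3a encodes the catalytic subunit of the NAD-dependent isocitrate dehydrogenase of the cycle (NM_029573, chr9:54434318-54452469). It was at 13.0, 9.12 and 11.6 RPKM after 1, 6 and 12 h of KLA, against 15.3 RPKM in the 1 to 12 h control, and at 20.2 RPKM after 24 h, against 18.0 RPKM in the 24 h control. Its interval excluded 1 at 6 h (1.68-fold lower, 1.17 to 2.42) and included it at 1, 12 and 24 h. Against the 24 h control the intervals at 1, 6 and 12 h lay below 1, with ratios of 0.722, 0.506 and 0.642. Among the KLA libraries it was 2.22-fold higher at 24 h than at 6 h (1.60 to 3.12).

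Ogdh encodes the decarboxylating subunit of the oxoglutarate dehydrogenase complex (NM_010956, chr11:6191600-6259097, the highest of 5 transcripts listed). Its lowest level was at the last time, although 24 h did not differ from 12 h of KLA beyond counting error (ratio 0.958, 0.819 to 1.12). Its level was 27.6, 22.5 and 19.8 RPKM after 1, 6 and 12 h of KLA, against 31.3 RPKM in the 1 to 12 h control, and 18.9 RPKM after 24 h, against 36.3 RPKM in the 24 h control. All 4 KLA libraries were below both untreated ones. That of 1 h was within counting error of the 1 to 12 h control (ratio 0.883, 0.772 to 1.01). Ogdh was 1.39-fold lower at 6 h (1.21 to 1.60) and 1.58-fold lower at 12 h (1.37 to 1.83). At 24 h it was 1.92-fold lower (1.68 to 2.20). The untreated libraries themselves differed, the 24 h control being at 1.16 times the other (1.03 to 1.31), and against the 1 to 12 h control the ratio at 24 h was 0.606 (0.524 to 0.699).

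Succinate dehydrogenase is the enzyme that itaconate inhibits and the one that the cycle shares with the respiratory chain. Sdha, its flavoprotein subunit (NM_023281, chr13:74459703-74487688, minus strand), was at 56.0, 40.4 and 43.3 RPKM after 1, 6 and 12 h of KLA, against 68.1 RPKM in the 1 to 12 h control, and at 48.9 RPKM after 24 h, against 63.8 RPKM in the 24 h control. Every KLA library was below both untreated ones. That of 1 h was within counting error of the 24 h control (ratio 0.877, 0.765 to 1.01). The lowest level was at 6 h (1.68-fold lower, 1.44 to 1.97), within counting error of 12 h of KLA. The difference at 24 h was smaller (1.30-fold lower, 1.14 to 1.50).

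Sdhb, its iron-sulfur subunit (NM_023374, chr4:140517186-140535107), was at 92.5, 59.4 and 106 RPKM after 1, 6 and 12 h of KLA, against 117 RPKM in the 1 to 12 h control, and at 111 RPKM after 24 h, against 85.1 RPKM in the 24 h control. The low library was that of 6 h, at 1.97-fold lower (1.61 to 2.41), while at 24 h Sdhb was at 1.31 times its control (1.10 to 1.55). That last value rests on the choice of control, as the 2 untreated libraries differed by 1.37-fold (1.15 to 1.64, the 24 h one lower). Against the 1 to 12 h control the ratio at 24 h was 0.953, with 1 inside the interval.

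Fh1 encodes fumarase, which hydrates fumarate to malate (NM_010209, chr1:177531509-177555766, minus strand). Its level was 18.9, 10.1 and 11.8 RPKM after 1, 6 and 12 h of KLA, against 21.7 RPKM in the 1 to 12 h control, and 14.0 RPKM after 24 h, against 19.7 RPKM in the 24 h control. All 4 KLA libraries were below both untreated ones, that of 1 h by less than counting error. Fh1 was 2.15-fold lower at 6 h (1.45 to 3.25, 39 reads against 78) and 1.84-fold lower at 12 h (1.27 to 2.70). Against the 24 h control the ratio at 6 h was 0.512 (0.341 to 0.758), just short of 2-fold.

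Mdh2, the mitochondrial malate dehydrogenase that closes the cycle (NM_008617, chr5:136254519-136266256), went the other way late. It was at 78.4, 75.3 and 111 RPKM after 1, 6 and 12 h of KLA, against 102 RPKM in the 1 to 12 h control, and at 144 RPKM after 24 h, against 79.3 RPKM in the 24 h control. The ratio was 0.742 at 6 h (0.621 to 0.885) and 1.81 at 24 h (1.55 to 2.11), and the 24 h library was above both untreated ones (1.41 against the 1 to 12 h control, 1.22 to 1.64). At 6 h the ratio against the 24 h control had an interval of 0.792 to 1.14, the 24 h control being at 0.781 times the other (0.658 to 0.926). Among the KLA libraries Mdh2 was 1.91-fold higher at 24 h than at 6 h (1.63 to 2.24). Within the set the enzymes thus did not share 1 course. At 24 h Ogdh, Sdha and Idh2 had intervals below 1, Sdhb and Mdh2 above 1, and Cs, Idh3a and Fh1 around 1.

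**Figure D2:**
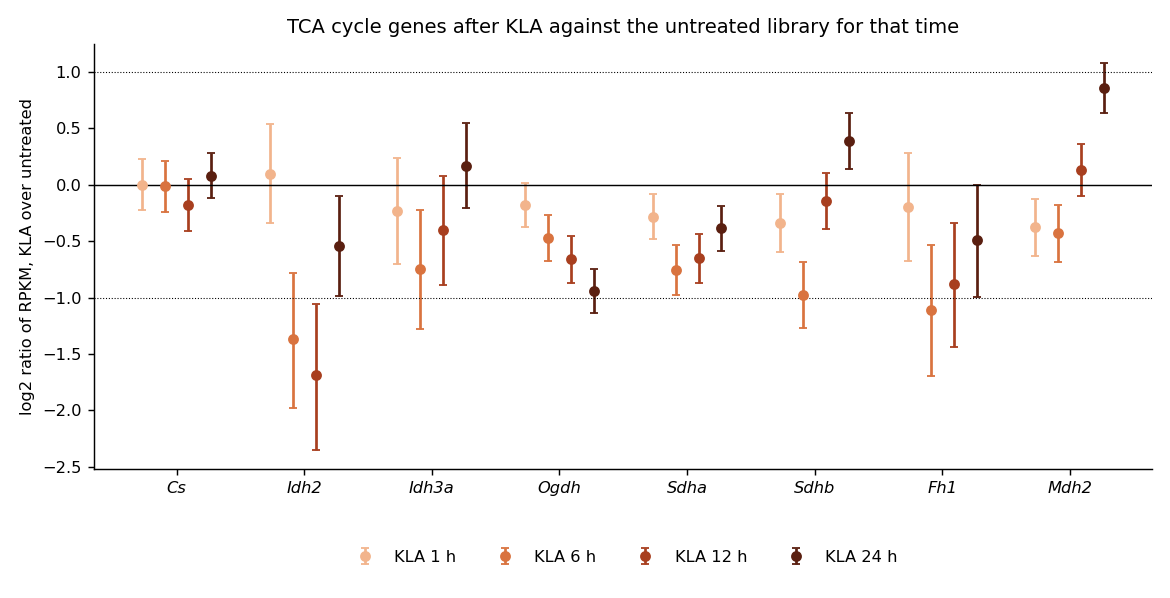
Log2 of the plain RPKM ratio of each TCA cycle gene at 4 times of KLA (light to dark: 1, 6, 12 and 24 h) over the untreated library for that time, with 95% exact binomial counting intervals as bars and dotted lines at 2-fold. Idh2 at 6 and 12 h and Fh1 at 6 h lie below the lower dotted line, Cs lies around 0 throughout, and Mdh2 reaches 1.81 times its control at 24 h.

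Markers of other cells moved at the times that these differences refer to. Of the 7 neutrophil markers in the table, S100a8 was at 118 RPKM after 24 h of KLA, against 45.5 RPKM in the 24 h control, and Csf3r at 9.86 RPKM, against 7.72 RPKM. S100a9, Cxcr2, Mpo and Elane were listed at 0 in that KLA library and Retnlg was at 0.616 RPKM. Of the 6 markers of fibroblasts and mesothelium, Dcn was at 104 RPKM after 24 h of KLA, against 59.5 RPKM in the 24 h control, Col1a1 at 29.2 RPKM, against 13.9 RPKM, and Col1a2 at 36.9 RPKM, against 21.1 RPKM. Col3a1 was lower, at 10.2 RPKM, against 15.5 RPKM, and Upk3b was listed at 0, against 2.85 RPKM. The summed macrophage markers were at 6936 and 7228 RPKM after 6 and 12 h, against 11193 RPKM in the 1 to 12 h control, and at 6096 RPKM after 24 h, against 9169 RPKM in the 24 h control, with Lyz2 making up most of the sum. Lyz2 was at 5118 and 5167 RPKM after 6 and 12 h, against 8848 RPKM in the 1 to 12 h control. Cd68 was lower too, at 1530 and 1649 RPKM, against 2043 RPKM. So were Csf1r (71.8 and 110 RPKM, against 152 RPKM) and Itgam (43.1 and 24.8 RPKM, against 51.4 RPKM). Emr1 was higher, at 136 and 247 RPKM, against 77.6 RPKM, and so was Mertk, at 38.8 and 29.4 RPKM, against 20.2 RPKM. The part of these markers in the results was not tested.

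Profiles over the 6 libraries were compared as a description. These libraries share 2 controls and their depth, so a correlation carries no test. Of the 28 pairs among the 8 TCA genes, 23 had a Pearson r above 0 on the log2(RPKM + 1) scale, between -0.60 for Ogdh with Mdh2 and 0.98 for Sdha with Fh1. Irg1 ran opposite to Sdha (r = -0.91), Ogdh (-0.89) and Fh1 (-0.82) and had r = 0.21 with Mdh2. Among 3611 genes with a range of at least 1 on the log2 scale, those most like Irg1 were Pdpn (podoplanin, r = 0.999), Ptgs2 (the inducible cyclooxygenase, 0.996), Ralgds (0.996), Bcl2a1a (a survival gene with near-identical copies, so that its reads are uncertain, 0.995) and Icam1 (the adhesion molecule, 0.994). Pdpn was at 436, 598, 538 and 522 RPKM at 1, 6, 12 and 24 h of KLA, against 130 and 127 RPKM in the 1 to 12 h and 24 h controls. The 5 most like the mean of the 8 TCA genes, among 5924, were Ilvbl, Gatc, Dpy30, Cyb5a and Ggnbp2, with r from 0.993 to 0.996.

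The remaining enzymes and subunits of the cycle stayed short of 2-fold on the log2(RPKM + 1) scale. Of 9 in the list, 8 passed the filter on low levels and none of those was 2-fold higher or lower at any time. Of all genes, 3.65%, 9.35%, 8.88% and 9.98% were higher at 1, 6, 12 and 24 h, and 4.09%, 22.4%, 16.3% and 10.6% were lower. The median log2 ratio of the 8 was -0.10, -0.59, -0.21 and 0.16 at these times. Idh3g, a regulatory subunit of the NAD-dependent isocitrate dehydrogenase, was at 17.7 RPKM after 6 h of KLA, against 36.1 RPKM in the 1 to 12 h control. That was past 2-fold lower on plain RPKM, and against the 24 h control Idh3g was so on the log2(RPKM + 1) scale too. Sdhd, a membrane anchor of succinate dehydrogenase, was at 72.5 RPKM after 6 h, against 127 RPKM in the 1 to 12 h control, and at 128 RPKM after 24 h, against 98.1 RPKM in the 24 h control (ratios 0.572 and 1.30). As for Sdhb, the value at 24 h rests on the choice of control, the ratio to the 1 to 12 h control being 1.01 (0.875 to 1.16). Suclg1 and Sucla2, subunits of succinyl-CoA ligase, had ratios of 0.612 (0.457 to 0.817) and 0.653 (0.499 to 0.853) at 6 h.

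Genes that feed pyruvate into the cycle were represented by 6 of 7 in the table. Of these, 1 was 2-fold lower at 6 h (22.4% of all genes were), Mpc2 of the mitochondrial pyruvate carrier, at 19.8 RPKM after 6 h of KLA, against 47.3 RPKM in the 1 to 12 h control (2.39-fold lower, 1.63 to 3.57), and none was at other times. Its log2 ratio at 6 h fell short of 2-fold against the 24 h control (-0.96) and with rescaled libraries (-0.76). Pdhb of pyruvate dehydrogenase had a ratio of 0.537 (0.369 to 0.776) at 6 h, Dlat of the same complex one of 0.660 at 12 h, and all 4 intervals of Mpc1 included 1, while its 2 untreated libraries stood at 10.7 RPKM (24 h control) and 29.0 RPKM (1 to 12 h control). The medians of these 6 were -0.23, -0.43, -0.55 and 0.12.

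Of the kinases and phosphatases that switch pyruvate dehydrogenase off and on, 5 passed the filter. At 1, 6, 12 and 24 h, 1, 3, 3 and 2 of the 5 were at least 2-fold lower, as were 4.09%, 22.4%, 16.3% and 10.6% of all genes, and none was higher, with medians of -0.04, -1.12, -1.02 and -0.71. With rescaled libraries these counts were 1, 2, 1 and 1, and with the other untreated library 1, 3, 3 and 1. Pdp1, a phosphatase that activates the complex, was at 5.46, 6.23 and 8.86 RPKM after 1, 6 and 12 h of KLA, against 19.0 RPKM in the 1 to 12 h control, and at 9.80 RPKM after 24 h, against 21.5 RPKM in the 24 h control. The kinases that inactivate the complex did not share 1 course. Pdk1 was at 4.98, 1.63 and 1.73 RPKM after 1, 6 and 12 h, against 4.72 RPKM in the 1 to 12 h control, and at 6.27 RPKM after 24 h, against 7.23 RPKM in the 24 h control. Pdk3 was at 7.92, 7.17 and 9.81 RPKM after 1, 6 and 12 h, against 8.17 RPKM in the 1 to 12 h control, and at 15.1 RPKM after 24 h, against 11.6 RPKM in the 24 h control, and its interval included 1 at all 4 times. Pdk2 held 2, 7 and 6 reads at 6, 12 and 24 h of KLA, against 26 reads in each control, and its ratio at 6 h was 0.0715 with a wide interval (0.00822 to 0.286). Pdp2 was between 1.67 and 2.29 RPKM with KLA and at 3.37 and 4.31 RPKM without it, on 14 to 39 reads. Pdk4 was listed at 0 in every library.

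Of the assembly factors of succinate dehydrogenase, 2 of 4 were in the table. Sdhaf1 had 6.04, 2.62 and 7.61 RPKM after 1, 6 and 12 h of KLA, against 16.0 RPKM in the 1 to 12 h control, and 9.68 RPKM after 24 h, against 10.0 RPKM in the 24 h control. On the log2(RPKM + 1) scale it was past 2-fold lower at 1 and 6 h, on 14 and 6 reads against 34. Against the 24 h control it was so at 6 h alone. Sdhaf2 was at 23.3 RPKM after 24 h, against 13.5 RPKM in the 24 h control (ratio 1.73, 1.36 to 2.21).

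Among the listed cytosolic counterparts and genes of citrate use, the largest difference was that of Idh1. This gene encodes the cytosolic and peroxisomal counterpart of Idh2 that also makes NADPH. It was at 129 RPKM after 1 h of KLA, 13.6 RPKM after 6 h and 28.9 RPKM after 12 h, against 156 RPKM in the 1 to 12 h control, and at 31.9 RPKM after 24 h, against 188 RPKM in the 24 h control. The 3 later KLA libraries lay far below both untreated ones, and at 6 h the gene was 11.5-fold lower (8.99 to 14.8). Of the 9 genes in its list (cytosolic counterparts and citrate use), 4 were 2-fold lower at 6 h (22.4% of all genes were), 1 was at 12 h (16.3%) and 1 was at 24 h (10.6%), and none was higher. The 4 at 6 h became 2 against the 24 h control, Idh1 and Aco1, and 1 with rescaled libraries, Idh1. The others at 6 h were Aco1 (cytosolic aconitase, 8.49 RPKM against 23.2 RPKM in the 1 to 12 h control), Mdh1 (cytosolic malate dehydrogenase, 37.9 RPKM against 80.2 RPKM) and Slc25a11 (the oxoglutarate carrier, 32.4 RPKM against 65.8 RPKM). The medians of the list were -0.27, -0.94, -0.56 and 0.02.

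Among genes of glutamine, aspartate and argininosuccinate, Ass1, the argininosuccinate synthase, was the 1 gene at least 2-fold higher. It was at 0.767, 6.21 and 11.0 RPKM after 1, 6 and 12 h of KLA, against 0.835 RPKM in the 1 to 12 h control, and at 14.0 RPKM after 24 h, against 0.474 RPKM in the 24 h control. The controls rested on 3 and 2 reads, so the ratio at 24 h was 29.5 with an interval of 7.83 to 249. Of the 6 in the list, 1 was 2-fold higher at 6, 12 and 24 h (9.35%, 8.88% and 9.98% of all genes were), and 2 were 2-fold lower at 6 h (22.4%). These were the aspartate aminotransferases Got2 (4.49 RPKM against 13.5 RPKM in the 1 to 12 h control) and Got1 (14.8 RPKM against 38.6 RPKM). Glud1, the glutamate dehydrogenase, was at 39.2 RPKM after 24 h, against 81.7 RPKM in the 24 h control, and was the 1 gene 2-fold lower there (10.6% of all genes were). With rescaled libraries Got1, Got2 and Glud1 were no longer past 2-fold, and against the 1 to 12 h control Glud1 at 24 h was not.

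**Figure D3:**
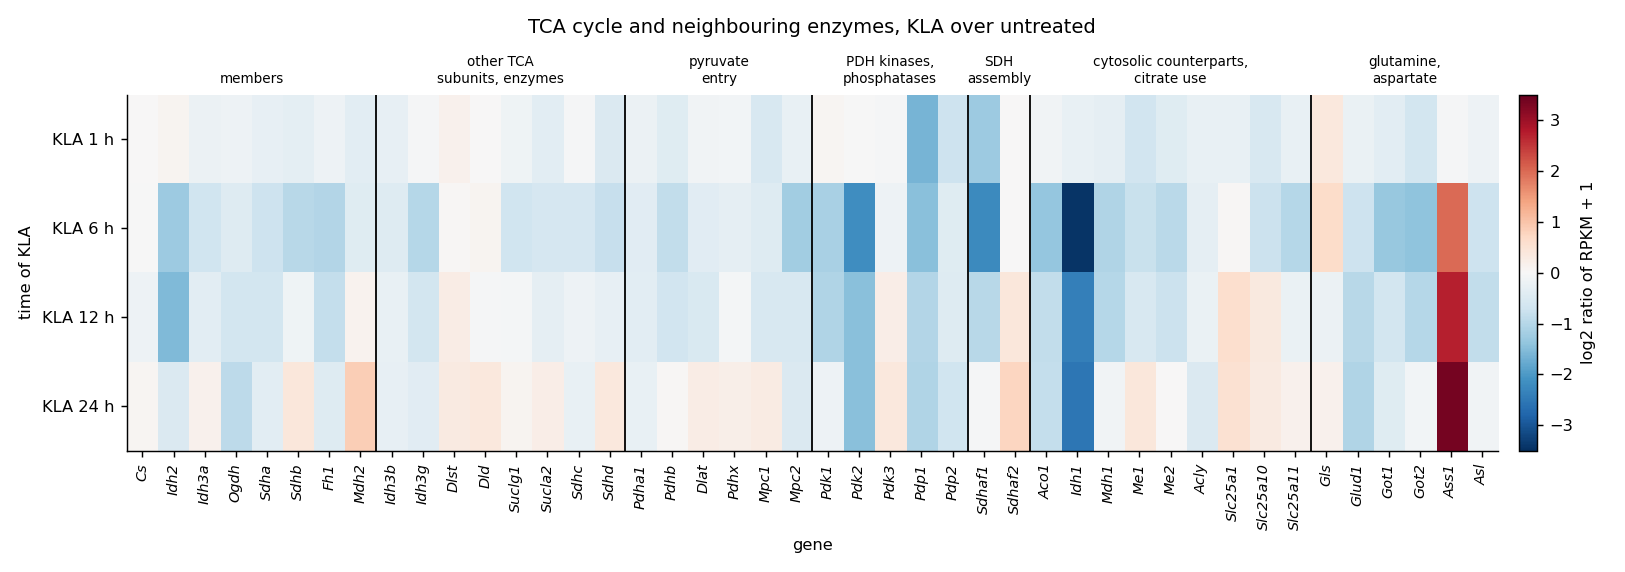
Log2 ratios of RPKM + 1 (colour, red higher and blue lower with KLA) at 4 times of KLA over the untreated library for that time, for the 8 TCA cycle genes and the listed genes around them that passed the filter. The deepest blue is Idh1 at 6 h (-3.43) and the deepest red Ass1 at 24 h (3.35), while most genes of the cycle stay pale.

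Genes known from earlier work on itaconate were read beside Irg1. Of 5 genes for its breakdown and handling, Rab32, a GTPase that brings Irg1 to vacuoles holding bacteria, was the 1 gene at least 2-fold higher at 6, 12 and 24 h, as were 9.35%, 8.88% and 9.98% of all genes. It was at 47.1, 154 and 167 RPKM after 1, 6 and 12 h of KLA, against 27.4 RPKM in the 1 to 12 h control, and at 263 RPKM after 24 h, against 32.9 RPKM in the 24 h control. Its ratio at 24 h was 7.98 (6.82 to 9.39). Clybl, which breaks down citramalyl-CoA, a product of itaconate, held 3 to 13 reads with KLA and 10 and 11 without it. Hps1 of the lysosome-related organelle complex was at 3.98 RPKM after 6 h, on 26 reads against 64 in the 1 to 12 h control (2.65-fold lower, 1.66 to 4.35), and short of 2-fold on the log2(RPKM + 1) scale against the 24 h control and with rescaled libraries. Rab38 held 2 to 8 reads with KLA and 2 and 4 without it.

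Of 7 genes named as responsive to itaconate, 1, 2, 3 and 2 were at least 2-fold higher at 1, 6, 12 and 24 h, as were 3.65%, 9.35%, 8.88% and 9.98% of all genes, and none was 2-fold lower. The counts were 1, 2, 4 and 1 against the other untreated library and 1, 2, 3 and 3 with rescaled libraries. Nfkbiz, which encodes the nuclear protein IκBζ, had its highest level at 1 h. It was at 538, 59.9 and 21.7 RPKM after 1, 6 and 12 h of KLA, against 2.20 RPKM in the 1 to 12 h control, and at 28.9 RPKM after 24 h, against 2.09 RPKM in the 24 h control. Keap1, the inhibitor of NRF2, was at 12.4, 47.1 and 44.6 RPKM after 1, 6 and 12 h, against 19.4 RPKM in the 1 to 12 h control. Hmox1, the heme oxygenase, and Gclm, a subunit of the enzyme of glutathione synthesis, both had ratios below 1 at 6 h and above 1 at 12 and 24 h. Hmox1 was at 159 and 546 RPKM after 6 and 12 h, against 259 RPKM in the 1 to 12 h control, and Gclm was at 26.9 and 65.9 RPKM, against 42.0 RPKM. Nfe2l2, which encodes NRF2, was at 222 RPKM after 1 h, against 159 RPKM in the 1 to 12 h control, and at 107 RPKM after 24 h, against 193 RPKM in the 24 h control.

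Kctd12, a gene near Irg1 on chromosome 14, did not share its course. It was at 76.3, 7.10 and 4.52 RPKM after 1, 6 and 12 h of KLA, against 20.1 RPKM in the 1 to 12 h control, and at 16.2 RPKM after 24 h, against 41.8 RPKM in the 24 h control. Kctd12 was thus higher at 1 h (ratio 3.79, 3.31 to 4.34) and lower at the later times. The untreated libraries differed 2.08-fold (1.80 to 2.40, the 24 h one higher). Against the other untreated library, Kctd12 was short of 2-fold at 1 h (ratio 1.83, 1.66 to 2.01) and at 24 h (0.803, 0.675 to 0.955) and past it at 6 and 12 h, and rescaling took the value at 6 h just short of 2-fold (log2 ratio -0.93).

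Binding was given for cells under GW3965 and RNA for cells under KLA, so the 2 were not measured together. SREBP1 drives genes of sterol and fatty acid synthesis, and LXR is the nuclear receptor for oxysterols. An SREBP1 peak lay with its centre within 10 kb of the start site in 4 of the 9 genes, as it did for 59.2% of all genes tested, and an LXR peak in 9 of 9, as for 75.5%. In 2 of the 9, Cs and Fh1, an SREBP1 peak overlapped an LXR peak by at least 1 base (19.3% of all genes). The LXR list was long, with 40660 peaks, against 13984 for SREBP1, and 27.2% of the SREBP1 peaks overlapped an LXR peak. Within 1 kb, 3 of the 9 genes had an SREBP1 peak (41.2% of all genes) and 7 an LXR peak (52.2%), and within 50 kb these were 7 (82.4%) and 9 (92.8%). All positions are on mm9, and the height of a peak is the authors' tag count per 10000000 tags.

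Irg1 had LXR peaks and no SREBP1 peak within 10 kb. Its 4 LXR peaks lay 9714 bases (110.6 tags) and 162 bases (29.3 tags) upstream of the start site and 1543 bases (26.7 tags) and 2012 bases (58.7 tags) downstream of it, and 9.67% of genes have at least as many. The tallest, at chr14:103436423-103436607, ranked 2251st of the list. The promoter printed above for Irg1 is that of the smaller peak 162 bases upstream.

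At Sdha the SREBP1 peak (20.5 tags, chr13:74487689-74487883) was centred 98 bases upstream of the start site and ranked 604th of its list, and an LXR peak of 52.0 tags lay 157 bases downstream without touching it. At Fh1 an SREBP1 peak of 11.1 tags lay 224 bases upstream and overlapped by 40 bases an LXR peak of 25.3 tags at 373 bases upstream. At Idh2 the SREBP1 peak was low (7.38 tags, rank 12777) and lay 172 bases upstream, with an LXR peak of 22.7 tags 751 bases downstream.

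At Cs the shared pair was not at the promoter. The SREBP1 peak (23.8 tags, rank 374, chr10:127781952-127782146) and the LXR peak (53.3 tags) lay 7161 and 7242 bases downstream of the start site, inside the transcribed span, and overlapped by 108 bases. It was the tallest SREBP1 peak of the 4 genes.

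The other 4 genes had LXR peaks only. Sdhb had 5, a number reached by 3.68% of genes, and 1 of them (110.6 tags, chr4:140517040-140517224) was centred 54 bases upstream of the start site. Mdh2 had a peak of 46.7 tags, also 54 bases upstream, and one of 29.3 tags 5896 bases upstream. Ogdh had 4 peaks of 21.3 to 45.3 tags, all downstream of the start site, and Idh3a 1 peak of 21.3 tags 7956 bases upstream. Of the 4 genes with an SREBP1 peak, Idh2 and Fh1 were 2-fold lower at 6 h of KLA, as were 22.4% of all genes, and Cs and Sdha were not. Fh1 was short of 2-fold against the 24 h control, and both were short of it with rescaled libraries. A link between these peaks and the RNA was not tested.

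**Figure D4:**
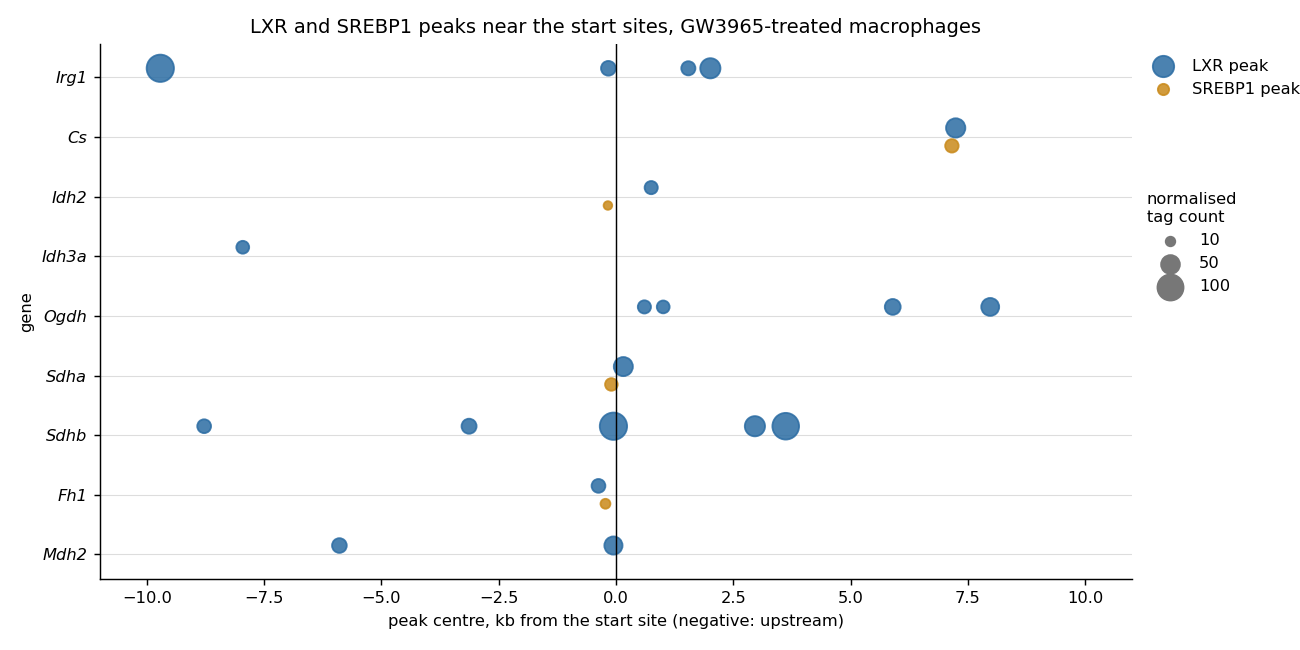
Position of LXR peaks (blue) and SREBP1 peaks (amber) relative to the start site of each gene, in kb with upstream negative, in macrophages given GW3965. The area of a point grows with the normalised tag count. All 9 genes have an LXR peak, 4 have an SREBP1 peak, and the overlapping pair of Cs lies more than 7 kb downstream.

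Among the enzymes around the cycle, SREBP1 peaks were found near 7 of the 8 other TCA genes that passed the filter and LXR peaks near 6, beside the shares of 59.2% and 75.5% of all genes. Idh1 had 3 of each, with an SREBP1 peak of 102 tags 7418 bases upstream that ranked 23rd of its list and an LXR peak of 227 tags 926 bases downstream that ranked 630th.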

How the data were processed

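RNA values were RPKM per transcript, deposited by the authors in 1 table on mouse build mm9. The submitters' processing notes name Bowtie 0.12.7, STAR and HOMER without roles. Use of strand in counting is not stated there, so overlapping and antisense genes cannot be told apart. Whole reads were recovered as RPKM × transcript length × a library total, and 99.97% of the values of each library were whole within 0.01 read.

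Peaks were called with HOMER, per the file headers, at a false discovery rate of 0.001 and a ratio of at least 4-fold over input and over the local 10000 bases. The tag count of each peak is the authors' signal, scaled to 10000000 tags (24395376 tags for SREBP1, 7501248 for LXR), and the fold over input is a ratio from the authors' peak caller. The peak score is the authors' own and was used for no result. Peaks of SREBP1 came from a tag directory named as combined, with an input from untreated cells, and the label gives 18 h of GW3965. Each factor had 1 list, so peaks have no replicate.

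KLA libraries were set against the untreated library whose title names that time. The filter kept genes that reached an RPKM of 1 in 2 libraries. Called means at least 2-fold on the log2(RPKM + 1) scale, which understates the change of low genes. Intervals are 95% exact Clopper-Pearson (ratios) or exact Poisson (levels) on recovered reads and cover counting error alone, as do floors of 3 reads, which at 1 kb are 1.12 to 1.36 RPKM. Python 3.11.15, pandas 2.3.3, scipy 1.17.1 and matplotlib 3.10.9 were used. The intervals of ratios were tested on counts simulated with counting error alone, so that test does not cover variation between libraries.

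All 9 members are named. From each other list up to 4 genes with the largest absolute log2 ratio after KLA are named, and from likeness the 5 highest Pearson r among genes reaching 10 RPKM. Other genes (the markers, listed genes at 0, Pdk3 and Nfe2l2) were named after their values were seen. The members and lists were chosen with earlier results of these data known. Alternatives were pseudocounts of 0.1 and 3, no filter, rescaled libraries, the other untreated library, the mean over transcripts, and other peak windows, peak heights and overlaps. The remaining samples of the series were not analysed here, and some listed genes are not reported here.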

Additional observations from a re-analysis of the deposited data

Results flagged for a closer look

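Among the members and the listed genes that passed the filter, other than cell type markers, 8 had counting intervals on opposite sides of 1 at different times of KLA, which is what singled them out. The share of all genes with such intervals was not computed, so the count of 8 has no background. Each comparison is between 1 library and its untreated control, and the difference between times was not tested. Among the TCA cycle genes, Sdhb was at 1.31 times its control after 24 h of KLA and 0.508 times after 6 h, and Mdh2 was at 1.81 and 0.742 times. Sdhd, another subunit of succinate dehydrogenase, was at 1.30 times after 24 h and 0.572 times after 6 h. The 2 times have different untreated libraries, and against the 1 to 12 h control the ratio at 24 h was 0.953 for Sdhb and 1.01 (0.875 to 1.16) for Sdhd.

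Among genes named as responsive to itaconate, Keap1 was at 2.42 times its control after 6 h and 0.640 times after 1 h. Against the 24 h control the ratio of Keap1 at 1 h was 0.817, with 1 inside the interval (0.618 to 1.08). Hmox1 was at 2.14 times after 24 h and 0.613 times after 6 h, and Gclm was at 1.95 and 0.639 times. Nfe2l2 was at 1.40 times its control after 1 h and 0.555 times after 24 h. Near Irg1 on the chromosome, Kctd12 was at 3.79 times its control after 1 h and 0.224 times after 12 h, against an untreated library that differed 2.08-fold from the other.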

How the results depend on the processing

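No paired analysis was possible because each condition had 1 library. The log2 ratio of Irg1 moved by less than its counting interval under the other pseudocounts, without the filter, with rescaled libraries, with the other untreated library and with the mean over transcripts. The 2 TCA cycle genes at least 2-fold lower at 6 h of KLA became 1 with a pseudocount of 3, 1 against the other untreated library and 0 with rescaled libraries. Rescaling also brought the median log2 ratio of the 8 to -0.25 at 6 h (-0.71 as deposited) and to -0.18 at 12 h (-0.50), a shift made by its construction. Genes with an SREBP1 peak numbered 7 instead of 4 within 50 kb, and genes with overlapping peaks numbered 1 instead of 2 within 1 kb, among the taller peaks of each list, and with centres within 100 bases. The remaining values were those of single genes other than Irg1 and the shares of all genes at least 2-fold lower. Of these, 90 moved beyond their counting interval or the limit set for shares, and 870 did not. Of those 90, 40 moved with the other untreated library and 41 with rescaling, and none changed sign as a call. Several named genes rest on few reads, among them Rab38, Clybl, Pdk2, Sdhaf1 and Ass1, and no setting replaces the missing replicates.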
